A study of Homo sapiens with 5 samples.

Results

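The transcripts of 39 genes of the actin cytoskeleton and of focal adhesions were compared between HaCaT keratinocytes labelled as control and as AHNAK knockdown. The genes were taken by symbol from a list that was chosen with earlier results of these data known. It covers actin isoforms, nucleators, severing and capping proteins, crosslinkers, tropomyosins, myosin II chains, adhesion plaque proteins and the transcription factor SRF. All 39 were found among the 27933 symbols of the deposited table, and all 39 were among the 12196 genes that were tested, those averaging 1 FPKM or more. FPKM divides a gene's fragments by transcript length and by the library's mapped fragments, so levels of different genes can be compared per length.

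HaCaT is an established, spontaneously immortalised human keratinocyte line. The 2 control libraries carry the genotype label control and the 3 others the label AHNAK knockdown, whereas the design text of the series speaks of a knockout. All 5 came from cells kept in DMEM with fetal bovine serum and antibiotics. No added cytokine or time after the knockdown is given in the labels. They mark the knockdown libraries as si and the controls as NC, and no reagent is spelled out. The labels do not say that replicates were separate cultures, so p-values measure the spread between these libraries, which may be technical.

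Actin filaments are built from monomers, started by the ARP2/3 complex or by formins, cut and capped by proteins such as cofilin and gelsolin, and decorated by tropomyosins, which decide in part which other proteins bind. Crosslinkers and myosin II turn filaments into contractile bundles, and talin and vinculin couple these bundles to integrins at focal adhesions. In keratinocytes this system carries spreading and migration on the basement membrane. Free actin monomers also hold back the MRTF coactivators of SRF, so genes of the cytoskeleton respond to the state of actin itself. AHNAK, a very large scaffold protein under the plasma membrane, is known to bind actin.

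Some libraries stood apart in ways the groups do not explain. Control replicate 1 and knockdown replicates 1 and 3 shared steps in their lowest values, as did control replicate 2 with knockdown replicate 2. These are called set A and set B; no label describes them, each holds both groups, and differences within each are given beside the pooled ones. FPKM sums ran from 374215 to 420541 per library, and read totals are unknown. Over 11768 tested genes with an annotated transcript, the deviation of a library from the 5-library mean followed transcript GC content with a Spearman's rho of 0.61 in knockdown replicate 1 and -0.55 in knockdown replicate 3. All 10 keratinocyte markers examined reached a mean of 1 FPKM, with sums of 6986 to 8550 FPKM in controls and 5790 to 7067 FPKM in knockdown. Of 9 leukocyte markers 0 reached it (sums of 1.51 to 2.30 FPKM over all libraries, TYROBP at 0). Of 8 smooth muscle markers 2 did (ACTA2 and SMTN; sums of 9.88 to 10.6 FPKM against 7.58 to 10.2 FPKM, MYOCD at 0). Of 10 fibroblast markers 4 did, with sums of 17.4 to 17.5 FPKM against 21.3 to 27.2 FPKM, none at 0 in every library. Of 7 melanocyte and 6 endothelial markers 2 and 1 did, with sums of at most 3.63 and 3.02 FPKM, and TYR was at 0. The part of these other markers in the results was not tested.

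AHNAK itself was lower in every knockdown library. It measured 204.8 and 242.0 FPKM in the 2 controls, while knockdown replicates 1, 2 and 3 gave 113.9, 69.6 and 115.3 FPKM. The groups did not overlap. The pooled log2 difference (knockdown minus control; log2(FPKM + 0.5) is the scale throughout) was -1.19 (SE 0.24). Its limma adjusted p (Benjamini-Hochberg, over all genes tested) was 0.372, above the threshold.

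None of the 39 genes passed this test, and most had lower values in knockdown. Limma called 0 of the 39 and 0 of the 12196 genes (0.0%) at an adjusted p under 0.05, with 1 member higher and 5 lower at an unadjusted p under 0.05, against 6.22% and 5.48% of all tested genes in those directions. Of the 39, 31 had a negative difference (48.7% of all genes did) and 8 a positive one (51.3%). In 12 of them all knockdown libraries lay below both controls, a share of 30.8% where all tested genes gave 15.8%. In 2 all knockdown libraries lay above both controls, where all genes gave 16.2%. The median difference of the 39 was -0.11 (-0.11 in set A, -0.16 in set B), beside 0.01 over all tested genes (-0.01 and 0.00). In both sets 20 of the 39 were lower, where 28.5% of all genes were, 3 were higher (27.2%), and 16 had opposite signs. In RNA of whole cultures, fewer cells with a transcript and less of it per cell cannot be told apart. With limma array weights (3.98 for knockdown replicate 2, 0.257 for knockdown replicate 3) 5 members passed (12.8%), TPM4 higher and GSN, MYH10, PDLIM7 and TPM1 lower, where 11.7% of all tested genes passed, a share near that of the members. The count of 5 at an unadjusted p under 0.05 was 1 without control replicate 1, 1 without control replicate 2 and 3 without knockdown replicate 2, where 2.06%, 2.42% and 3.2% of all genes were lower at that level.

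**Figure D1:**
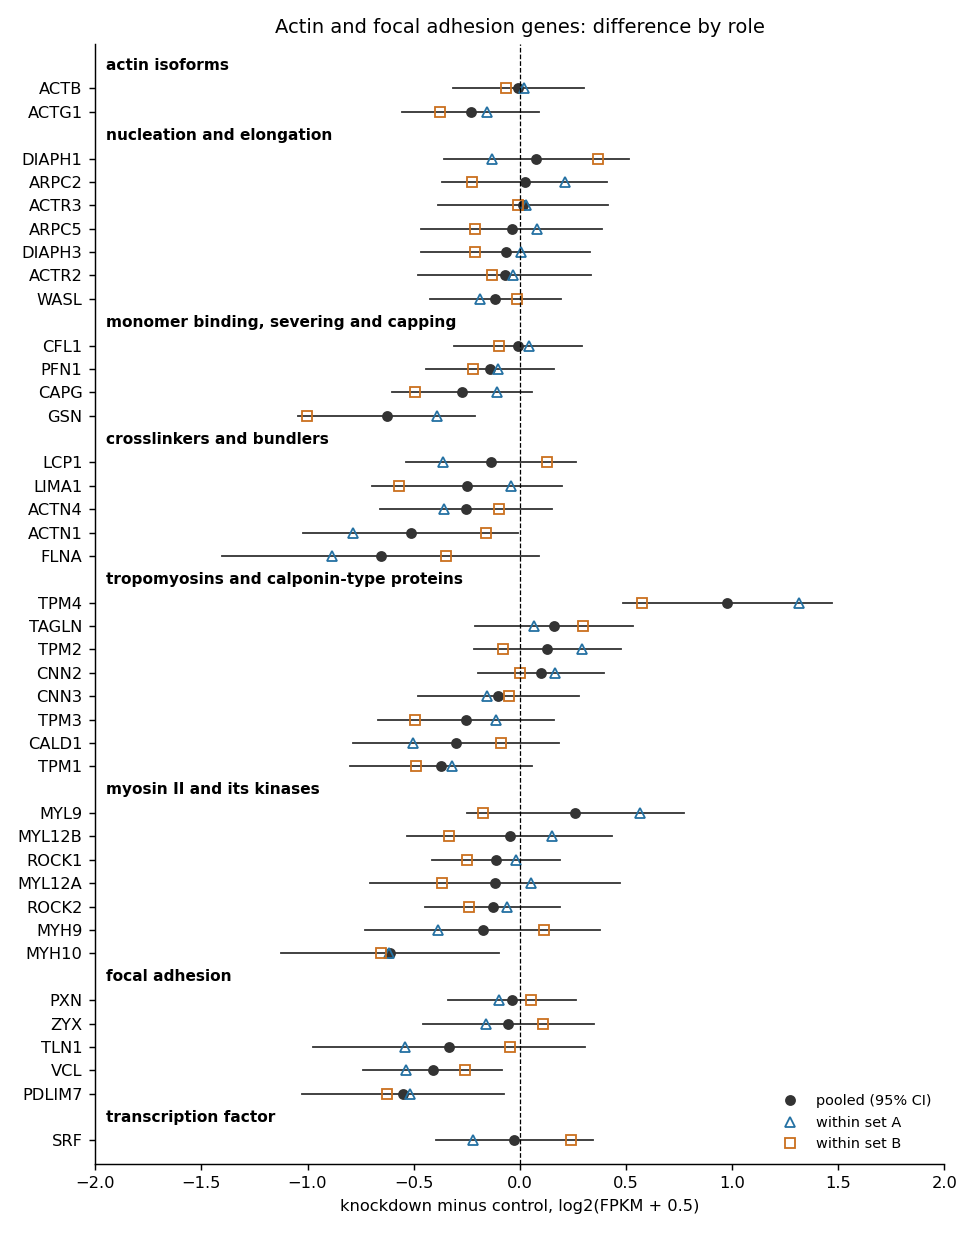
Difference between knockdown and control for the 39 genes, grouped by role, on the log2(FPKM + 0.5) scale: black points are the pooled limma estimates with their 95% confidence intervals, triangles the differences within set A and squares those within set B. TPM4 at 0.98 is the gene farthest to the right, and FLNA, GSN, MYH10, PDLIM7 and ACTN1 lie between -0.66 and -0.51.

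Cytoskeletal genes are known targets of SRF, which binds the CArG box, and the sequences before their starts were therefore read. The table of RefSeq starts used here (GRCh38.p14) matched 36 of the 39 genes, with 68 start sites; ACTB, MYL9 and TAGLN were not matched. Windows from 250 bases before to 50 bases after a start held a CArG box at 7 of these 68 starts, in 7 of 36 genes, while 1.29% of all 35116 starts and 1.60% of all 27305 genes did. The box reads the same on either strand, so both strands were covered. The 7 genes were SRF, ACTG1, FLNA, ACTN1, ROCK2, TPM4 and CNN2. The 200 bases before the start are given for 6 of them, 5 whose groups did not overlap between control and knockdown and SRF itself, 5′ to 3′ on the strand of the gene, with the boxes in capitals.
TPM4: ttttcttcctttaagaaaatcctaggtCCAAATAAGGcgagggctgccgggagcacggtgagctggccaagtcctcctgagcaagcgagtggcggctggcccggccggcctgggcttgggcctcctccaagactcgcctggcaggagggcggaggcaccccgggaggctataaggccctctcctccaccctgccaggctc
CNN2: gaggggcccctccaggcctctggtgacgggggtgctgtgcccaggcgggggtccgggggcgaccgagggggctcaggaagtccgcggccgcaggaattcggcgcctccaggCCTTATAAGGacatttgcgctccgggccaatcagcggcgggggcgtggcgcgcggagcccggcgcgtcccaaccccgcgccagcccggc
ACTN1: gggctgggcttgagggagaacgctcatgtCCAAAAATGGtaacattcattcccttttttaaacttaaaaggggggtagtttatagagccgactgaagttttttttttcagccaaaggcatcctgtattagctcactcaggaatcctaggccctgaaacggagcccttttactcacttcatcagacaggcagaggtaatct
FLNA: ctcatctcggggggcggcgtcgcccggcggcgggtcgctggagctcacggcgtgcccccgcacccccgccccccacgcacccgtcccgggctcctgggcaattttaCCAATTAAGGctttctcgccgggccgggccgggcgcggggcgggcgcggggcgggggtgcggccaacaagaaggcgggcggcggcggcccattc
ACTG1: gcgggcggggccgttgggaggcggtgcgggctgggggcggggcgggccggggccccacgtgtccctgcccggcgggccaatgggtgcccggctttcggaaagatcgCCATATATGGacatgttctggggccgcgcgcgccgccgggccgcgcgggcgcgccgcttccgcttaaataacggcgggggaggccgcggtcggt
SRF: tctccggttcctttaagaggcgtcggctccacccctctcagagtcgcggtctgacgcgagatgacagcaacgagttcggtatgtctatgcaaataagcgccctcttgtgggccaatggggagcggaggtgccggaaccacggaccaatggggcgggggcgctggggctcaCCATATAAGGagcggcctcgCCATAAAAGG

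The TPM4 window is chr19:16067338-16067537 on the plus strand, with the box starting 173 bases before this start, which is 1 of 3 listed. That of CNN2 is chr19:1026408-1026607, plus strand, with the box 89 bases before its single start. ACTN1 is shown at 1 of 4 starts (chr14:68977567-68977766, minus strand, box at 171 bases). FLNA (chrX:154374635-154374834, minus strand) and ACTG1 (chr17:81512800-81512999, minus strand) both carried it 94 bases before their single start. SRF (chr6:43171069-43171268, plus strand, 1 of 2 starts) carried 2 boxes, at 30 and 10 bases. A match is a description of letters and not of binding, and gene-level FPKM does not show which start was used. All but SRF were shown because their groups did not overlap, so only their directions are described here, and these differed. TPM4 and CNN2 were higher in every knockdown library, and ACTN1, FLNA and ACTG1 lower in every one. For CNN2 the margin was 134.6 FPKM in knockdown replicate 2 against 134.5 FPKM in control replicate 2. SRF overlapped between the groups, as did ROCK2, the gene with a box that is not shown (log2 difference -0.13).

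The actin isoforms themselves differed little. ACTB, cytoplasmic beta-actin, was the most abundant of the 39 genes, with 1647 and 1622 FPKM in the controls, and 1735, 1551 and 1602 FPKM for knockdown replicates 1, 2 and 3. Its groups overlapped, with a log2 difference of -0.01 (95% confidence interval -0.31 to 0.30). ACTG1, cytoplasmic gamma-actin, had 1171 and 1184 FPKM in the controls, against 1071, 912.7 and 1032 FPKM in knockdown. All knockdown values of ACTG1 lay below the controls, and the difference was -0.23 (SE 0.14, limma adjusted p = 0.539; -0.16 in set A, -0.38 in set B). As a share of the summed FPKM of both isoforms, ACTG1 made up 41.9% ± 0.45 (SD, n = 2) in controls and 38.1% ± 1.1 (SD, n = 3) in knockdown. That share, which does not depend on how a library was scaled, was lower in 3 of 3 knockdown libraries. An exact two-sided permutation test gave p = 0.1, the smallest that 2 against 3 libraries allow, and 0.14 after Benjamini-Hochberg adjustment over 7 such shares. Of 50-base stretches of the longest ACTB transcript 10.3% also occur in transcripts of other genes, most often a processed copy, and 3.58% of those of ACTG1 do, so reads may be divided among copies.

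Genes that start and extend filaments were close to level. ACTR2, ACTR3, ARPC2 and ARPC5 are subunits of the ARP2/3 complex, which branches new filaments from old ones. WASL (N-WASP) activates that complex, and DIAPH1 and DIAPH3 are formins, which extend unbranched filaments. The 7 differences ran from -0.11 (WASL) to 0.08 (DIAPH1), and WASL was the only one whose groups did not overlap. Knockdown replicates 1 and 3 pulled apart in the 4 subunits: ARPC5 stood at 81.2 FPKM in knockdown replicate 1 and 114.4 FPKM in replicate 3, around the controls at 91.0 and 100.4 FPKM. ACTR3 did likewise, at 36.7 and 51.6 FPKM around controls of 42.7 and 42.8 FPKM.

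Among monomer-binding, severing and capping genes, gelsolin was the one with the clearest difference. GSN, which cuts filaments in response to calcium and caps their ends, had 97.9 and 111.5 FPKM in the controls, against 73.8, 55.4 and 75.3 FPKM for knockdown replicates 1, 2 and 3. Every knockdown library was below both controls. The log2 difference was -0.63 (SE 0.18, limma adjusted p = 0.387; set A -0.39, set B -1.00). It kept its sign in every fit run, from -0.84 to -0.48. Its relative CAPG, which caps without cutting, was also lower in every knockdown library, at 114.6 and 132.3 FPKM against 108.6, 93.7 and 103.9 FPKM (log2 difference -0.27, SE 0.14). The gap between the groups of CAPG was small, 108.6 against 114.6 FPKM.

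Cofilin and profilin, the abundant monomer-cycling proteins, showed smaller differences. CFL1, cofilin, which removes subunits from old filaments, stood at 837.5 and 854.2 FPKM in controls and at 878.4, 797.9 and 846.7 FPKM in knockdown. Its groups overlapped and its log2 difference was -0.01 (95% confidence interval -0.31 to 0.29). PFN1, profilin, which feeds monomers to growing ends, stood at 766.5 and 759.4 FPKM against 731.9, 652.7 and 694.2 FPKM. All 3 knockdown values were lower, by -0.14 on the log2 scale (SE 0.13, limma adjusted p = 0.675), and 8.86% of its 50-base stretches are shared with a pseudogene.

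All 5 crosslinkers and bundlers had lower means in knockdown. FLNA, filamin A, which ties filaments into networks and to membrane proteins, had 475.7 and 383.9 FPKM in controls, against 376.1, 301.5 and 175.7 FPKM for knockdown replicates 1, 2 and 3. The groups did not overlap, but control replicate 2 and knockdown replicate 1 lay next to each other and knockdown replicate 3 far below. Its log2 difference was -0.66 (SE 0.31, limma adjusted p = 0.472; -0.89 in set A, -0.35 in set B). Without knockdown replicate 3 it was -0.34.

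ACTN1, alpha-actinin 1, which bundles stress fibres and anchors them at adhesions, was at 123.7 and 95.2 FPKM in controls against 86.3, 85.1 and 59.4 FPKM in knockdown. All knockdown values were lower, with a log2 difference of -0.51 (SE 0.21, limma adjusted p = 0.425; -0.79 in set A, -0.16 in set B). It was -0.33 without control replicate 1 and -0.34 without knockdown replicate 3. ACTN4, its close relative, was at 213.7 and 197.0 FPKM against 194.9, 183.9 and 142.4 FPKM, a difference of -0.25 (SE 0.17), and control replicate 2 and knockdown replicate 1 nearly touched. LIMA1, which stabilises bundles, and LCP1, a plastin best known from leukocytes, overlapped between the groups with differences of -0.25 and -0.14. LCP1 was at 5.97 to 8.63 FPKM in all libraries, while the leukocyte markers summed to at most 2.30 FPKM.

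The tropomyosins went in opposite directions. TPM4 had the smallest p of the 39 genes and was the 1 member higher at an unadjusted p under 0.05. The controls had 70.5 and 103.5 FPKM, and knockdown replicates 1, 2 and 3 had 156.7, 154.4 and 198.4 FPKM. The lowest knockdown library was well above the higher control. Means were 87.0 ± 23.3 FPKM (SD, n = 2) in control and 169.8 ± 24.7 FPKM (SD, n = 3) in knockdown, which is 1.95 times the control. On the log2 scale TPM4 differed by 0.98 (SE 0.21; 95% confidence interval 0.49 to 1.47). Set A gave 1.32 and set B 0.58, and the limma adjusted p of 0.372 missed the threshold. The controls differed from each other, and the difference was 0.70 without control replicate 1 and 1.25 without control replicate 2.

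TPM1, by contrast, was lower in every knockdown library, at 5.24 and 5.14 FPKM in controls against 3.40, 3.51 and 4.94 FPKM (log2 difference -0.37, SE 0.18, limma adjusted p = 0.478). Knockdown replicate 3 nearly reached the controls. TPM3 (-0.25) and TPM2 (0.13) overlapped between the groups. In every library TPM4 was the most abundant tropomyosin and TPM3 the second.

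The share of each tropomyosin in the sum of the 4 genes separated the groups more evenly than the levels did. TPM4 made up 58.3% and 65.8% in the controls and 78.1%, 79.5% and 78.8% in knockdown replicates 1, 2 and 3. The 3 knockdown libraries thus lay close together although they come from both sets. TPM3 made up 31.4% and 25.4% in the controls and 15.3%, 14.5% and 15.9% in knockdown, and TPM1 4.33% and 3.27% against 1.70%, 1.81% and 1.96%. The differences were 16.8 points for TPM4, -13.1 for TPM3 and -1.98 for TPM1, each with an exact two-sided permutation p = 0.1 (0.14 adjusted), the smallest possible. TPM2 made up 6.03% and 5.52% against 4.84%, 4.22% and 3.34%, lower in every knockdown library by -1.64 points on average (exact permutation p = 0.2, adjusted 0.233). The shares are parts of the same sum, so a higher TPM4 lowers the others and the 4 differences are not separate results. The level of TPM2 averaged 7.99 FPKM in control and 8.77 FPKM in knockdown. Without control replicate 1 the TPM4 difference was 13.0 points. The summed level of the 4 genes was 121.0 and 157.3 FPKM in controls and 200.5, 194.3 and 251.7 FPKM in knockdown. Of 50-base stretches of the longest TPM4 transcript 23.1% also occur in other transcripts, 19.1% in the transcript AC098614.1, and 8.81% of those of TPM3 do. The gene AC008894.3 overlaps an exon of TPM4 on the other strand. The part of shared reads in these values was not tested.

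**Figure D2:**
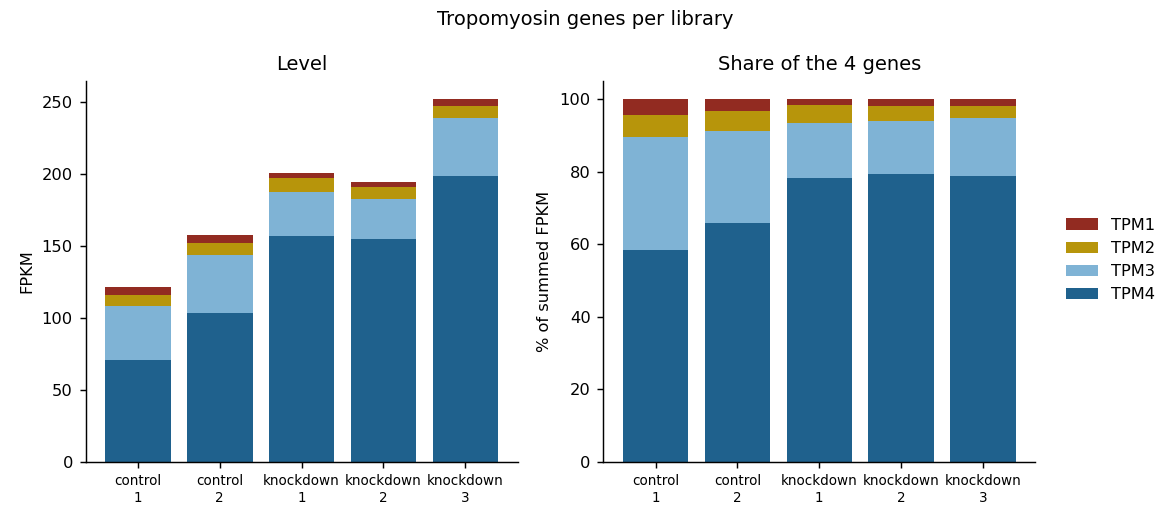
Tropomyosin genes in each library, as stacked FPKM (left) and as percent of the sum of the 4 genes (right). TPM4 takes 58.3% and 65.8% of the sum in the controls and 78.1% to 79.5% in the 3 knockdown libraries.

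The other filament-side genes of this kind were low or little different. CALD1, caldesmon, which restrains myosin on filaments, stood at 4.61 and 3.40 FPKM in controls and at 2.52, 3.16 and 3.80 FPKM in knockdown, with overlapping groups and a log2 difference of -0.30. TAGLN (transgelin) ranged from 1.14 to 1.51 FPKM and differed by 0.16. Calponins CNN2 and CNN3 differed by 0.10 and -0.10. CNN2 was higher in every knockdown library, by a hair in knockdown replicate 2 (134.6 FPKM against 134.5 FPKM in control replicate 2).

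**Figure D3:**
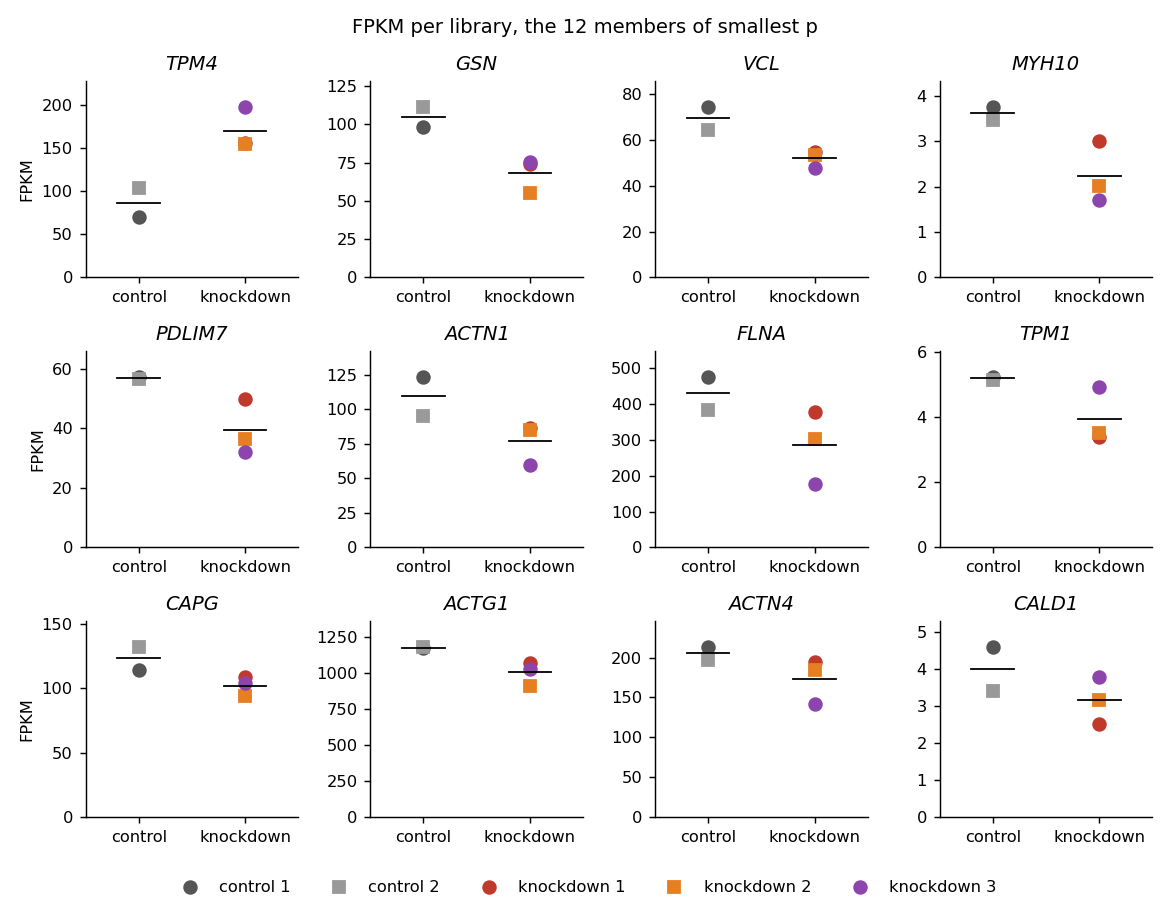
FPKM of the 12 genes of smallest p among the 39, with 1 point per library, circles for set A, squares for set B and bars for group means. TPM4 lies above both controls in every knockdown library, and 10 of the other 11 lie below both controls in every one, while CALD1 overlaps. The 12 genes were picked by p from these same libraries, so this separation follows in part from the pick.

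Among the genes of myosin II and its kinases, only MYH10 had groups that did not overlap. MYH9, the heavy chain of non-muscle myosin IIA, was the main one, at 288.5 and 239.7 FPKM in controls against 282.6, 259.1 and 172.3 FPKM, with overlapping groups (log2 difference -0.18). MYH10, the heavy chain of myosin IIB, was at 3.76 and 3.47 FPKM against 3.00, 2.02 and 1.71 FPKM. All knockdown values of MYH10 were lower, with a log2 difference of -0.61 (SE 0.22, limma adjusted p = 0.395) that was nearly the same in set A (-0.62) and set B (-0.65). MYH10 made up 1.36% ± 0.10 (SD, n = 2) of the summed FPKM of both heavy chains in controls and 0.94% ± 0.14 (SD, n = 3) in knockdown, lower in 3 of 3 libraries (exact permutation p = 0.1, adjusted 0.14). At about 2 to 4 FPKM it is a low gene, and the pseudocount understates its change. NDEL1, an exon of which overlaps MYH10 on the other strand, was at 24.5 to 33.0 FPKM, and without a stated strand setting its reads cannot be told apart from those of MYH10.

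The light chains MYL12A and MYL12B and the kinases ROCK1 and ROCK2, which activate myosin II, differed by -0.13 to -0.05, and MYL9 by 0.26 at about 2 to 3 FPKM. All 5 overlapped between the groups. MYL12A reached both the lowest and the highest of its 5 values in knockdown, 52.4 FPKM in replicate 1 and 92.5 FPKM in replicate 3. Its share of the summed FPKM of MYL12A and MYL12B was 27.7% ± 0.5 (SD, n = 2) and 26.7% ± 1.8 (SD, n = 3), with an exact permutation p = 0.7. These neighbouring genes share 6.44% of the 50-base stretches of MYL12A.

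At focal adhesions all 5 genes had lower means in knockdown, and VCL and PDLIM7 were lower in every library. VCL, vinculin, which strengthens the link from talin to actin under tension, stood at 74.5 and 64.2 FPKM in controls and at 54.6, 53.5 and 47.9 FPKM in knockdown. The 3 knockdown libraries lay close together, and the log2 difference was -0.41 (SE 0.14, limma adjusted p = 0.394; -0.54 in set A, -0.26 in set B). AP3M1, which overlaps an exon of VCL on the other strand, was at 12.7 to 18.3 FPKM. PDLIM7, a PDZ and LIM domain protein of stress fibres, stood at 57.4 and 56.7 FPKM against 49.9, 36.6 and 32.0 FPKM. The controls of PDLIM7 nearly coincided and its knockdown libraries were spread, with a log2 difference of -0.55 (SE 0.20, limma adjusted p = 0.395; -0.52 in set A, -0.63 in set B).

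The remaining adhesion genes overlapped between the groups. TLN1, talin, which activates integrins, differed by -0.33, at 30.6 and 25.4 FPKM in controls and 28.7, 24.6 and 15.1 FPKM in knockdown, where replicate 3 alone was far down. ZYX (zyxin) and PXN (paxillin), a pair of plaque adaptors, differed by -0.05 and -0.04. SRF stood at 20.7 and 17.3 FPKM in controls and at 19.2, 20.5 and 16.3 FPKM in knockdown. Its difference was -0.03 (95% confidence interval -0.40 to 0.34), and it had opposite signs in set A (-0.22) and set B (0.24).

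The spread among knockdown libraries followed GC content. Over the 39 genes, the deviation of knockdown replicate 1 from the 5-library mean had a Spearman's rho of 0.74 with transcript GC content and that of knockdown replicate 3 one of -0.60, while knockdown replicate 2 gave 0.17 and the controls 0.14 and -0.07. With transcript length the rho was 0.42 in control replicate 1 and -0.05 in control replicate 2. Knockdown replicates 1, 2 and 3 gave 0.05, 0.17 and -0.27 with length. These correlations are descriptions over genes that share the same libraries. FLNA (62.2% GC) deviated by 0.21 in knockdown replicate 1 and by -0.89 in replicate 3, and MYL12A (44.9% GC) by -0.37 and 0.44. Knockdown replicate 3 held the lowest value of 12 of the genes and the highest of 11. TPM4 (49.1% GC) deviated upwards in both, by 0.28 and 0.62. When libraries were corrected for the GC content and length of transcripts, TPM4 was at 0.92, GSN at -0.59, MYH10 at -0.54, PDLIM7 at -0.48, ACTN1 at -0.47, FLNA at -0.45 and VCL at -0.37, and 30 of the 39 differences were negative (median -0.16). Those of MYH9 and TLN1 were then -0.02 and -0.18, and those of SRF, ZYX and PXN turned to 0.08, 0.06 and 0.03.

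**Figure D4:**
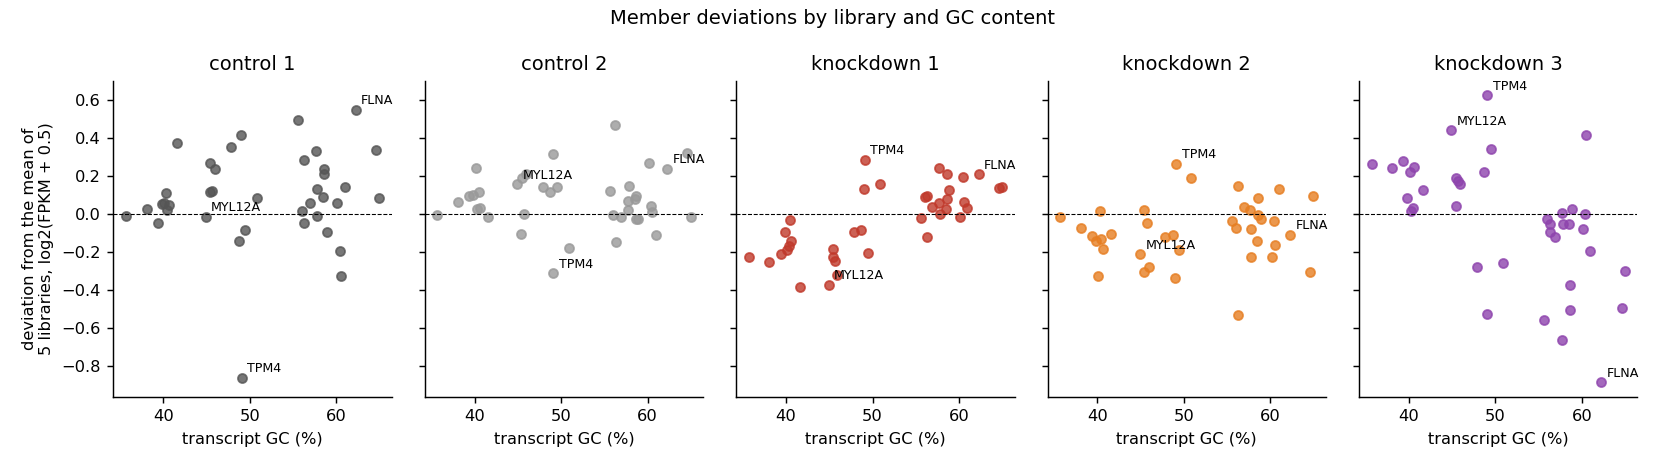
Deviation of each of the 39 genes from its 5-library mean on the log2(FPKM + 0.5) scale against the GC content of its longest annotated transcript, with 1 panel per library. Points rise with GC content in knockdown 1 (rho 0.74) and fall in knockdown 3 (rho -0.60); TPM4 lies above 0 in all 3 knockdown libraries and below it in both controls.

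Other genes of the same machinery, listed by function, gave 135 tested of 158, of which 0 passed, 57 had positive and 78 negative differences (median -0.05). At an unadjusted p under 0.05, 8 were higher (5.93%) and 12 lower (8.89%), beside 6.22% and 5.48% of all tested genes. In 36 the knockdown libraries lay below both controls and in 21 above, shares to read against 15.8% and 16.2% of all genes. The count lower at an unadjusted p under 0.05 was 6 without knockdown replicate 2 (4.41%, beside 3.2% of all genes). It was 22 without knockdown replicate 1 (16.4%, beside 8.9%) and 14 without knockdown replicate 3 (10.2%, beside 6.63%). The count higher at that level was 4 without knockdown replicate 2 (2.94%, beside 2.86% of all genes). Without knockdown replicate 3 it was 13 (9.49%, beside 7.86%), but without knockdown replicate 1 it was 9 (6.72%, beside 8.22%). The shares thus did not exceed those of all genes in each fit.

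In crosslinkers and membrane linkers 11 of 13 had negative differences (median -0.18; -0.28 in set A, -0.26 in set B) and 4 had an unadjusted p under 0.05, all lower. SPTBN1, a spectrin under the membrane, differed by -0.54, from a mean of 48.7 ± 4.4 FPKM (SD, n = 2) to 33.6 ± 4.9 FPKM (SD, n = 3). EZR (ezrin) and PLS1 differed by 0.11 and 0.00. Among focal adhesion genes 22 of 34 were negative (median -0.06; -0.19 in set A, 0.05 in set B). TGFB1I1 (Hic-5, a relative of paxillin) and TNS4 (a tensin) differed by -0.64 and -0.37, and NEDD9, a docking protein of the p130Cas family, and CSK, the kinase that inhibits SRC, by 0.71 and 0.41. All 4 had no overlap between the groups.

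ARP2/3 subunits and their activators were mixed, with 11 of 18 positive (median 0.09). CTTN, cortactin, which stabilises branches, and BRK1, a subunit of the WAVE complex, differed by 0.38 each. ARPC1B and WASF1 differed by -0.47 and -0.24, all 4 without overlap. Formins and Ena/VASP proteins had 7 of 10 negative (median -0.09), with DIAPH2 (0.47) and FMNL1 (0.40) higher and INF2 (-0.43) and ENAH (-0.29) overlapping. Turnover and capping genes split 11 positive to 10 negative. CORO1A, a coronin, was at 7.34 and 4.83 FPKM against 3.49, 3.31 and 1.66 FPKM (-1.01), and TWF2, twinfilin, differed by -0.37. LIMK1, which inactivates cofilin, and CFL2 differed by 0.30 and 0.29.

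Among regulators of myosin II 12 of 21 were negative (median -0.04). RAC1, the GTPase of lamellipodia, stood at 103.7 and 119.0 FPKM in controls and at 144.5, 159.5 and 191.5 FPKM in knockdown. All knockdown values of RAC1 were higher, with a log2 difference of 0.56 (SE 0.16, limma adjusted p = 0.387). PPP1CB and PPP1R12A, the catalytic and targeting subunits of myosin phosphatase, differed by 0.36 and -0.32, and CIT, citron kinase, by -0.40. SRF cofactors and responsive genes split 9 positive to 10 negative (median 0.00). ITGA5, the alpha chain of the fibronectin receptor, stood at 27.2 and 22.6 FPKM against 16.3, 15.7 and 13.1 FPKM (-0.71), and ELK4, a partner of SRF, and TUFT1 differed by 0.60 and 0.65. These 3 had no overlap between the groups and did not pass (limma adjusted p of 0.372 to 0.387).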

How the data were processed

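Total RNA of 2 control and 3 AHNAK knockdown libraries was sequenced. The authors deposited FPKM values, 1 row per symbol and 1 column per library; HISAT2 2.0.1 and StringTie 2.0.6 are named in the submitters' processing notes, with the builds GRCh38 and mm9 in no stated role. Neither the annotation nor a strand setting is stated in those sources. No depth can be read from FPKM, so no interval for counting error is given.

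From these, log2(FPKM + 0.5) was fitted with limma 3.58.1 (R 4.3.3; lmFit, eBayes with trend, no covariate) over the 12196 genes averaging 1 FPKM or more, with Benjamini-Hochberg adjustment over all of them and a threshold of 0.05. The step was tested on simulated data with independent noise of equal spread in all genes and libraries. That setting is simpler than these libraries, which differ in spread and in GC content trends. Paralog shares were tested with exact permutation over libraries. Sets of libraries came from ratios of values under 0.3 FPKM.

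Lengths, GC content, shared 50-base stretches and exon overlaps came from GENCODE release 29 (GRCh38), by symbol, matching 96.5% of tested genes; 17 of the 39 genes overlap an exon on the other strand. Values per library are given for the 12 members of smallest p and ACTB, ACTG1, CFL1, PFN1, VCL and SRF, and for others chosen after their values were seen; of each other list, the 2 genes of smallest p per direction are named, except 1 gene that is not reported here. Members and lists were chosen with earlier results of these data known. The alternatives covered the pseudocount, the filter, scaling, the variance model, library weights, a replicate block, a set term, a GC content and length correction and each library left out. MRTFA, MRTFB, CCN1 and CCN2 were matched by older symbols.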

Additional observations from a re-analysis of the deposited data

How the results depend on the processing

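AHNAK stayed below control throughout (-1.32 to -0.95 with each library left out) and reached the threshold with array weights alone (-1.55, limma adjusted p = 0.034). Knockdown replicate 2 then had a weight of 3.98 and knockdown replicate 3 one of 0.257. In that fit 5 of the 39 genes passed (TPM4, GSN, MYH10, PDLIM7 and TPM1), as did 20 of the other pathway genes (12.8% and 14.8%), beside 11.7% of all tested genes; in the other fits, and at an adjusted p under 0.1, 0 passed. For the shifts listed here the cause was not tested. Of 1180 fits of named genes, AHNAK aside, 1125 had the sign given in the text.

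The median of the 39 was -0.168 both with an equal FPKM sum and with array weights, -0.184 with the replicate block, and -0.184 to -0.064 with each library left out. Positive members numbered 13 in set A alone and 10 to 13 with a library left out. Members lower at an unadjusted p under 0.05 numbered 11 with array weights (16.3% of all genes were lower at that level) and 3 with the set term (3.14%). They numbered 8 when corrected for GC content and length (9.74%). Without knockdown replicate 1 they numbered 6 (8.9%), without replicate 2 they numbered 3 (3.2%) and without replicate 3 they numbered 7 (6.63%). With array weights 28.9% of the other pathway genes were lower and 14.8% higher at that level, beside 16.3% and 18.8% of all genes. With the set term these shares were 3.7% and 2.96%, beside 3.14% and 3.65%. When corrected they were 17.3% and 9.77%, beside 9.74% and 8.81%. With the replicate block 5.19% were lower (3.44% of all genes), and with an equal FPKM sum 2.96% were higher (4.2%). Other pathway genes lower at that level numbered 39, 5 and 23 in the first 3 of these fits, 7 with the replicate block and 1 to 22 with a library left out; higher, 20, 4 and 13, 4 with an equal FPKM sum and 3 to 13 with a library left out.

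Signs of small differences turned. ACTR3 and ARPC2 were at -0.0084 and -0.025 with quantile normalization, -0.039 and -0.031 with an equal sum, -0.016 and -0.074 with weights, -0.11 and -0.083 with the replicate block and -0.028 and -0.077 when corrected for GC content. PLS1 was at -0.048 with an equal sum, -0.011 with the block and -0.077 when corrected. With an equal median ACTB and CFL1 were at 0.012 and 0.0085. ZYX, PXN and SRF were at 0.045, 0.0074 and 0.086 with weights, 0.084, 0.016 and 0.065 with the block and 0.058, 0.026 and 0.080 when corrected. With the block ACTB and MYH9 were at 0.0053 and 0.041.

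Leaving out each library in turn gave ranges across 0 of -0.052 to 0.028 for ACTB, -0.21 to 0.041 for ACTR2, -0.11 to 0.13 for ACTR3, -0.11 to 0.15 for ARPC2, -0.19 to 0.059 for ARPC5, -0.041 to 0.028 for CFL1, -0.32 to 0.041 for MYH9, -0.36 to 0.045 for MYL12A, -0.23 to 0.064 for MYL12B, -0.14 to 0.084 for ZYX, -0.074 to 0.016 for PXN, -0.052 to 0.22 for DIAPH1, -0.20 to 0.013 for DIAPH3, -0.32 to 0.052 for LCP1, -0.21 to 0.0022 for CNN3, -0.15 to 0.098 for SRF and -0.12 to 0.13 for PLS1. Share differences ran from -2.51 to -1.45 points for TPM1, -16.1 to -10.2 for TPM3, 13.0 to 20.5 for TPM4 and -1.82 to 0.0054 for MYL12A.

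Deviations of same-numbered libraries from their group means correlated at -0.064 and -0.578. The deviations of the controls mirror each other, so these correlations are not independent. They cannot show whether the replicate numbers pair the libraries. The block leaves knockdown replicate 3 without a partner, so its differences equal those without that library, and it called 0 of the 39 genes. Read depth is unknown, which limits what low genes such as MYH10, TAGLN and MYL9 can show.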
